A study of Mus musculus with 16 samples.

Results

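Dorsal raphe nucleus (DRN) transcriptomes of stressed mice with an active coping strategy (AS) were set against those of unstressed control mice, both after a saline injection. The comparison took the 3 AS saline and the 3 control saline libraries, 6 of the 16 libraries of the series, and all 14504 listed genes. All animals were adult male C57BL6 mice. AS animals had been exposed to chronic social defeat stress (CSDS) for 30 days, a procedure in which a mouse is attacked daily by an aggressive CD1 male and then housed next to an aggressor behind a partition. They were classed as AS, rather than as having a passive coping strategy (PS), by clustering of how they behaved when near an aggressor that was not attacking. Controls were not defeated. Each mouse received physiological saline by intraperitoneal injection a day after the last confrontation, and the nucleus was punched from frozen sections 6 h later. Matching groups given dexamethasone (DEX, 2 mg/kg), a synthetic agonist of the glucocorticoid receptor, provided 2 AS and 3 control libraries, PS saline provided 2, and the 3 PS DEX libraries are shown in plots and enter the shared estimate of spread. Each library came from 1 animal, and the study describes more saline animals in each group than were analysed here. The AS class rests on behaviour and not on a genetic manipulation, the controls differ from AS animals in housing as well as in defeat, and a punch holds every cell type of the nucleus and its border.

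The DRN lies under the cerebral aqueduct and holds most of the serotonin neurons that project to the forebrain. These neurons make serotonin with tryptophan hydroxylase 2 (Tph2) and recover it with the serotonin transporter (Slc6a4), and they sit among GABA, glutamate and dopamine neurons, glia, vessels and, at the aqueduct wall, ependymal cells with motile cilia. Social defeat is a stressor that activates the glucocorticoid axis and is widely used to model depression-like states, and animals that meet it actively or passively are studied as models of coping. The comparison under saline asks what differs in the nucleus of AS animals a day after the last defeat, apart from any response to DEX.

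The 6 libraries held between 39845090 reads (an AS library) and 62447298 reads (another AS library) in listed genes, within a range of 38207157 to 62447298 over the series. Values are normalized counts, that is reads divided by a size factor of the library, and are given throughout in the order of control libraries con_sal_102, con_sal_104 and con_sal_114 and of AS libraries dep2_sal_14, dep2_sal_40 and dep2_sal_8, where con, dep2 and dep1 are the labels of control, AS and PS animals and the number that of the animal. Tph2, the defining gene of the labelled tissue, was at 107794, 148070 and 123390 in controls and at 115333, 182191 and 103435 in AS. The study removed DRN samples with low Tph2 before analysis, so its abundance here was in part set by that selection. No noradrenergic marker of the neighbouring locus coeruleus (0 of 4) was among the listed genes. Libraries did not group by coping class. In a principal component analysis of the 8 saline libraries the first component carried 47.3% of the variance and put con_sal_104 (score 23.4), con_sal_114 (18.9) and dep2_sal_40 (40.7) on one side, with con_sal_102 (-17.8), dep2_sal_8 (-18.8), dep2_sal_14 (-6.33) and both PS libraries on the other. The control con_sal_102 correlated with the AS library dep2_sal_8 at 0.990 over log2 values, while pairs within the AS or the control group ranged from 0.967 to 0.983. The nuclear noncoding RNA Malat1 showed the spread among controls, at 70048, 8641 and 28316 against 45682, 49694 and 54122 in AS.

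No gene passed the test in AS saline against control saline. With limma on log2(normalized count + 1), 0 of 14504 genes (0%) reached an adjusted p under 0.1, and 347 genes (2.39%) had an unadjusted p under 0.05, of which 178 were higher (1.23%) and 169 lower (1.17%) in AS. The share was below the 5% that a set of null genes gives on average. Whole reads were recoverable from the normalized values, and on these reads DESeq2 called 11 of 14220 genes (0.0774%), 1 higher in AS (0.00703%) and 10 lower (0.0703%), with 386 genes (2.66%) at an unadjusted p under 0.05. The quasi-likelihood test of edgeR called 0 genes, with 361 (2.49%) at an unadjusted p under 0.05. In 651 genes (4.49%) the 3 AS libraries lay entirely above (345 genes, 2.38%) or entirely below (306 genes, 2.11%) the 3 controls. The median log2 difference of all genes was 0.016, and 7821 genes (53.9%) were higher in AS. The standard error (SE) of the log2 difference was 0.17 for the median gene and 0.46 at the 90th percentile, so that for the median gene the 95% interval reached 0.36 to either side. Since no limma test passed (adjusted p 0.998 for every gene named in AS saline against control saline), "higher" and "lower" below describe library values and their intervals, with the unadjusted limma p where it is given.

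**Figure D1:**
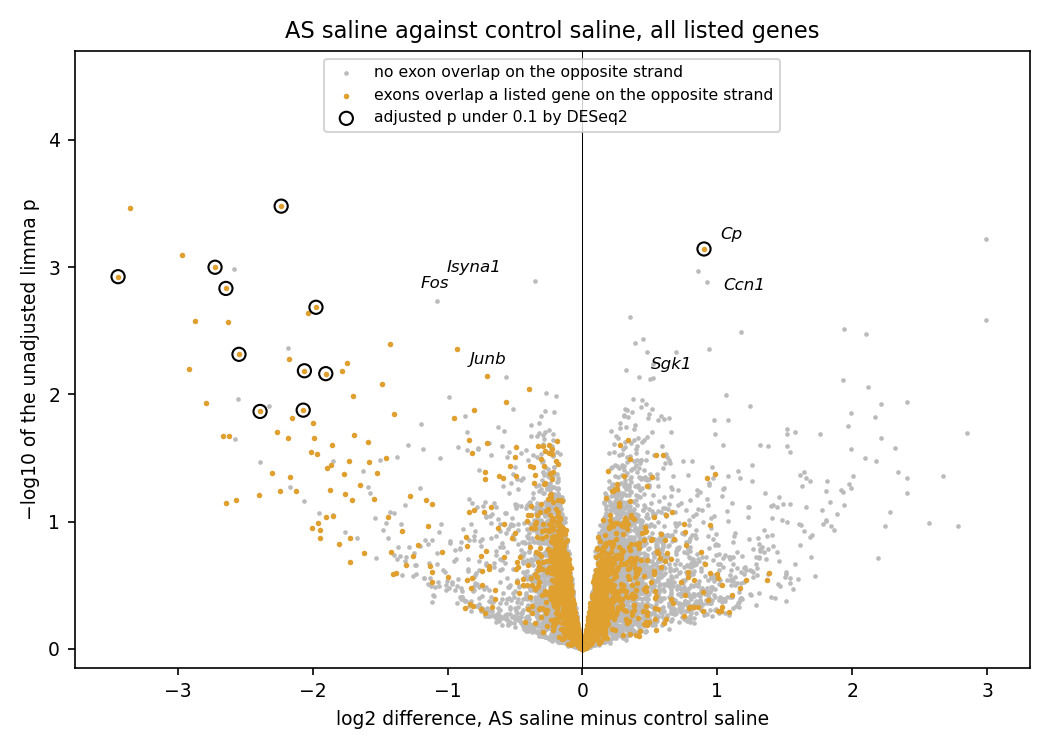
Each point is 1 of the 14504 genes, with the AS minus control log2 difference under saline on the x axis, the −log10 of the unadjusted limma p on the y axis, orange for genes whose exons overlap a gene on the opposite strand, and circles around the 11 genes called by DESeq2. Of the circled genes, Cp is the only one to the right of 0 and the other 10, all orange, lie to the left.

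Ceruloplasmin (Cp), the copper-carrying ferroxidase that astrocytes and other glia use to export iron, was the gene that DESeq2 called higher in AS. Cp (ENSMUSG00000003617.16, GRCm38 chromosome 3, 19957054 to 20009145) was at 451, 303 and 294 in controls and at 669, 783 and 502 in AS. All AS libraries lay above all controls, with means of 349 ± 87.9 (SD, n = 3) and 651 ± 141 (SD, n = 3). The log2 difference was 0.90 (SE 0.21, 95% interval 0.45 to 1.35, unadjusted limma p 0.00072), and DESeq2 gave an adjusted p of 0.093. Cp shares 1.13% of its exon length with the opposite-strand gene Hps3. DESeq2 kept the call without con_sal_102 (adjusted p 0.0005) or dep2_sal_8 (0.018) and lost it without any of the other 4 libraries. PS saline libraries were at 454 and 466, between the group means, and the DEX libraries ran the other way, at 654, 790 and 664 in controls and at 563 and 554 in AS (log2 difference -0.33, unadjusted limma p 0.18). Of the 23 measured genes of iron and copper handling, 15 were higher and 8 lower in AS, with a median log2 difference of 0.05. Cp was the 1 member higher at an unadjusted p under 0.05 (1.23% of all genes were), and 3 members (13%) had AS libraries entirely above controls, beside 2.38% of all genes.

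The other 9 higher genes were those with the smallest limma p among genes whose AS libraries all lay above the controls. Ccn1, a secreted matricellular protein that is an immediate target of YAP signalling, was at 69.3, 86.5 and 65.5 in controls and at 161, 143 and 119 in AS (log2 difference 0.92, SE 0.23). The DEX controls, at 136, 148 and 175, were at the level of the AS saline libraries. Cd59b, which codes for a membrane inhibitor of complement and has a close paralog, Cd59a, so that its counts are uncertain, was at 49.5, 60.1 and 56.2 against 146, 88.8 and 93.1 (0.94, SE 0.28). The noncoding RNA 5330439K02Rik, transcribed from a bidirectional promoter, was at 55.5, 61.1 and 69.2 against 96.5, 126 and 117 (0.86, SE 0.21). In these 3 genes counts were low, and the lack of overlap between groups was a condition of their choice.

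More abundant genes differed by less. Jam2, an adhesion molecule of endothelial tight junctions, was at 1954, 1653 and 1660 in controls and at 2436, 2662 and 2094 in AS (log2 difference 0.45, SE 0.13), while the PS saline libraries were at 1525 and 2024. Nfe2l2, which codes for NRF2, the transcription factor of the antioxidant response, was at 489, 490 and 424 against 715, 671 and 575 (0.48, SE 0.14), and PS saline was at 439 and 490. Fpgt, an enzyme of fucose salvage, was at 733, 642 and 669 against 891, 1010 and 786 (0.39, SE 0.11), and PS saline was at 668 and 691. For these 3 genes both PS libraries lay below every AS library, and AS minus PS was 0.44, 0.49 and 0.39 on the log2 scale, none of them past the limma test. Emsy, a chromatin regulator that binds BRCA2, had a log2 difference of 0.36, and the zinc finger genes Zfp85 and Zbtb10 had 0.69 and 0.52. AS and PS libraries overlapped in all 3 genes, for Emsy at 2198, 2413 and 2309 against 2348 and 2406.

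**Figure D2:**
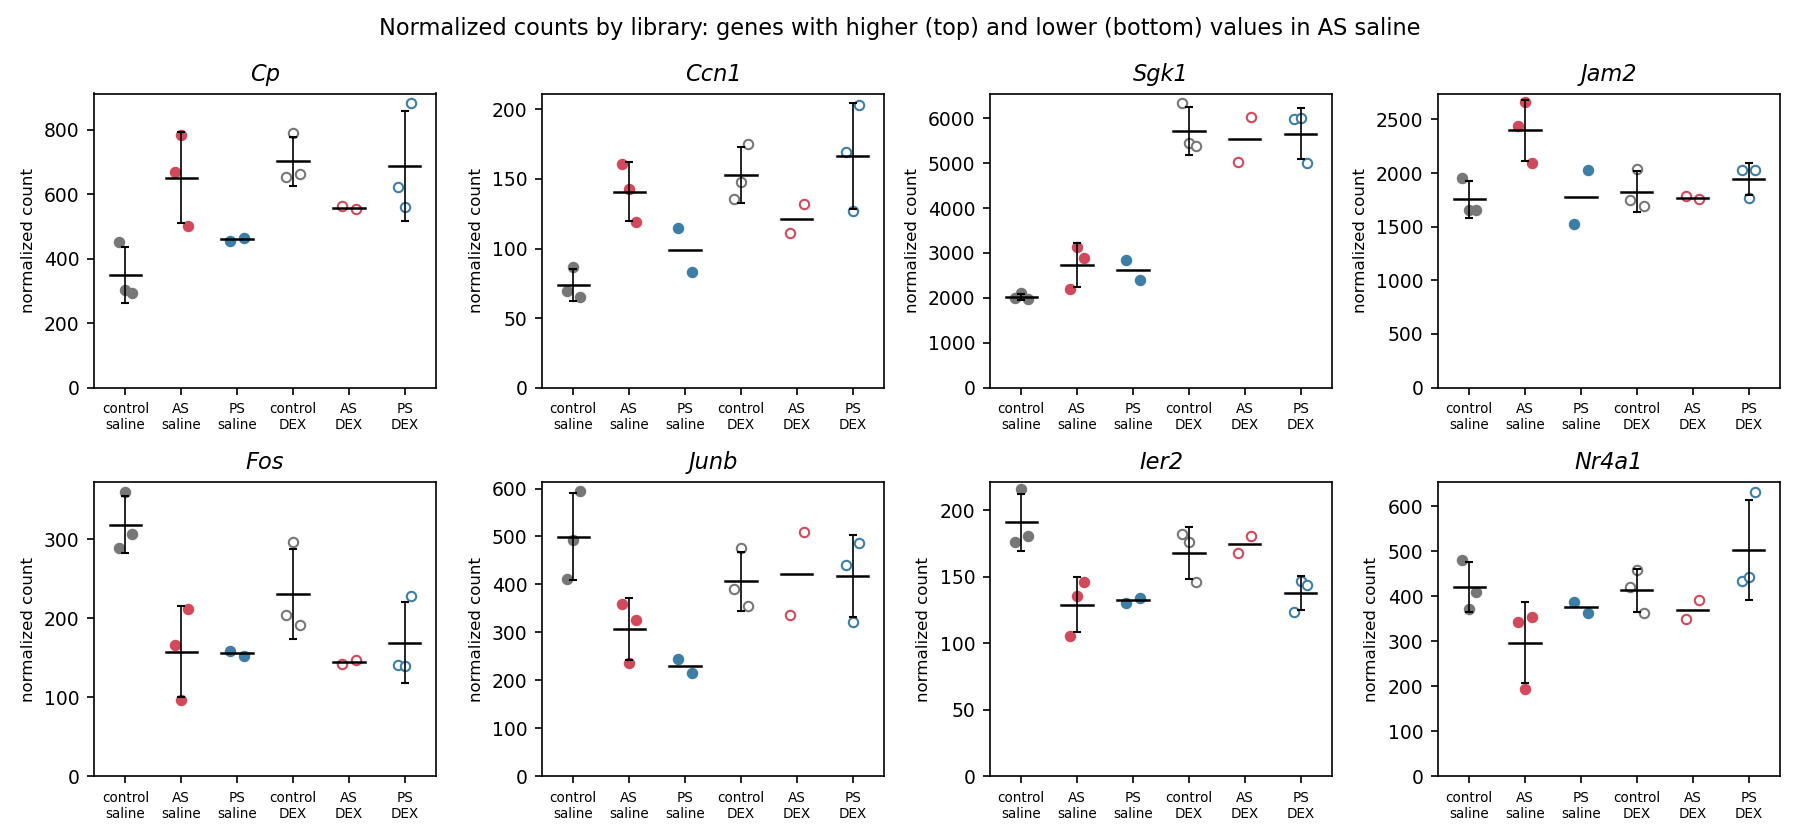
Normalized counts (y axis, from 0) of 8 genes in each of the 16 libraries by group, 1 point per library (filled, saline, open, DEX), with the mean as a line and the SD as a bar in groups of 3. The AS saline points of Cp, Ccn1, Sgk1 and Jam2 lie above the control saline points and those of Fos, Junb, Ier2 and Nr4a1 below, and the DEX groups of Cp and Ccn1 have controls above AS.

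Genes that glucocorticoids induce lay slightly higher in AS, far below their level after DEX. Of 24 such targets, 19 were higher (79.2% beside 53.9% of all genes) and 5 lower in AS. For 4 targets, all higher, the unadjusted limma p was under 0.05, as for 1.23% of all genes. In 2 targets the AS libraries lay entirely above the controls (8.33% beside 2.38% of all genes). The median log2 difference was 0.09 beside 0.02 for all genes. Sgk1, a kinase that glucocorticoids and mineralocorticoids induce, was at 1988, 2102 and 1978 in controls and at 2188, 3127 and 2884 in AS (log2 difference 0.42, SE 0.13, unadjusted limma p 0.0073). The groups did not overlap, and DEX controls were at 6333, 5445 and 5389. The metallothionein Mt2, which binds zinc and copper, was at 3024, 2763 and 2129 against 4374, 3558 and 3025 (0.47, SE 0.20), with the lowest AS library level with the highest control, and DEX controls were at 6785 to 6897. Sult1a1, a sulfotransferase (0.59, SE 0.25), and Arl4d, a small GTPase (0.75, SE 0.32), overlapped between groups. Fkbp5, the co-chaperone that limits the receptor and is a standard readout of its activity, did not follow, at 1293, 1356 and 1241 against 1243, 1387 and 1347 (0.03, 95% interval -0.18 to 0.24), while DEX controls reached 5701 to 6330.

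The same list gave a score for each library, in which each member's log2 value, less its average in the 16 libraries, was averaged over the list. The score was -0.75, -0.81 and -0.77 in controls and -0.59, -0.58 and -0.65 in AS, so the groups did not overlap. PS saline libraries were at -0.51 and -0.59, level with AS, and all DEX libraries lay between 0.46 and 0.85. The glucocorticoid receptor gene Nr3c1 was at 5704, 6018 and 6181 in controls and at 6021, 7386 and 5889 in AS (log2 difference 0.10, 95% interval -0.14 to 0.35). Over the 9 measured genes of corticosteroid receptors and the corticotropin-releasing hormone system, 5 were higher and 4 lower, with a median of 0.03 and none at an unadjusted p under 0.05. The hormone itself, Crh, was at 68.4, 85.5 and 85.7 against 78.1, 44.8 and 30.8 (-0.72, SE 0.37).

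Most members of a list of immediate early genes, which neurons and glia transcribe within minutes of stimulation, lay lower in AS. Ccn1, given above as an immediate target of YAP signalling, was not in the list and lay higher (log2 difference 0.92). Of 11 listed genes measured, 9 were lower and 2 higher, by up to 0.49. An unadjusted limma p under 0.05 was found for 4 members, all lower (1.17% of all genes were lower at this threshold). In 5 members the AS libraries lay entirely below the controls (45.5% of the list beside 2.11% of all genes). The median log2 difference was -0.32, and it ran from -0.36 to -0.26 when each library was left out in turn. Fos (chromosome 12, 85473890 to 85477273), a subunit of the transcription factor AP-1 that marks recently active cells, was at 289, 359 and 307 in controls and at 165, 96.1 and 211 in AS (log2 difference -1.08, SE 0.28, unadjusted limma p 0.0018). Junb, which pairs with Fos, was at 412, 493 and 595 against 359, 235 and 326 (-0.71, SE 0.23), with 7.52% of its exon length shared with the opposite-strand gene Prdx2. Ier2, a short-lived nuclear regulator, was at 176, 216 and 181 against 106, 135 and 146 (-0.57, SE 0.18). The AS library dep2_sal_40 was the lowest for Fos and Junb but not for Ier2, and no AS library reached the lowest control in any of the 3 genes. Nr4a1, an orphan nuclear receptor, was at 479, 372 and 409 against 344, 193 and 353 (-0.55, SE 0.22).

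Promoters were sought for Fos, Junb and Ier2, and the RefSeq promoters used held none for Ier2. Those of Fos and Junb, the AP-1 genes with the smallest p in this list, are printed. Both hold a core of the cAMP response element, through which CREB drives activity-dependent transcription. They are the 250 bases before the RefSeq start on GRCm38.p6, at chr12:85473640-85473889 on the plus strand and chr8:84978749-84978998 on the minus strand. Capitals mark this core (TGACG) and, in Fos, a GC box (GGGCGG, here on the opposite strand as CCGCCC).
Fos: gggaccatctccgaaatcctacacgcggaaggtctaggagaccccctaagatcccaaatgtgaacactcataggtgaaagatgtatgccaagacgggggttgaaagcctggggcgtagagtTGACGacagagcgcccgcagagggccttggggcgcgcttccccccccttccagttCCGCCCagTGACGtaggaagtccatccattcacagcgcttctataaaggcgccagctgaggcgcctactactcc
Junb: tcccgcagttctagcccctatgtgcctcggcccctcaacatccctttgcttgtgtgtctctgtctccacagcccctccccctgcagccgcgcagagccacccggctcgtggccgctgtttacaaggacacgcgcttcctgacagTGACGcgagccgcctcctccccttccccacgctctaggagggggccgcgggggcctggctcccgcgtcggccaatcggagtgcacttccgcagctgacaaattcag
The core starts 129 and 66 bases before the start of Fos and 106 bases before that of Junb. Counting either strand, it was in 5 of 8 promoters of the list (62.5%) and in 27.5% of the 10279 promoters of listed genes that RefSeq gave, and the GC box in 6 of 8 (75%) and in 59.9%. These are matches of letters, not measured sites.

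In both PS saline libraries Fos (159 and 152) and Junb (244 and 214) lay within or below the AS range, against the same controls. AS minus PS was -0.05 for Fos and 0.40 for Junb on the log2 scale, neither past the limma test. Under DEX, in libraries that share no animal with the saline comparison, Fos was at 204, 296 and 192 in controls and at 142 and 147 in AS, which did not overlap (log2 difference -0.64, unadjusted limma p 0.059), while Junb overlapped (0.03). Over the list, 7 of 11 members were higher in AS under DEX, with a median of 0.06.

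All 10 genes that DESeq2 called lower in AS were transcripts that share exon sequence with a more abundant gene on the opposite strand. Of the annotated genes, 17.5% (2543 of 14499) overlapped a listed opposite-strand gene of any abundance. For 9 of them the partners were Nrsn2, Hdac11, Gpi1, Chmp3, Ptprn, Atp6v0b, Chn1, Tspyl4 and Mid1ip1, and the overlap covered 12.1% to 100% of the exon length. These partners were 82.3 to 347.5 times as abundant and differed by -0.23 to -0.002 on the log2 scale. The library kit kept the strand, and the paper reports a high strand specificity for every sample. Whether the counting used the strand was not given in the sources used here. How far reads of these genes and of their partners were told apart was not tested. Gm26762 (chromosome 7, 34224755 to 34230236), a noncoding RNA opposite the glycolytic gene Gpi1, was at 65.4, 731 and 446 in controls and at 39.1, 63.2 and 33.7 in AS (DESeq2 log2 difference -3.19, adjusted p 0.00075). The control con_sal_102 thus sat with the AS libraries, and the difference rested on con_sal_104 and con_sal_114. Gm47512, opposite the brain-expressed gene Tspyl4, showed the same order at 103, 775 and 761 against 74.7, 103 and 107 (DESeq2 log2 difference -2.53, adjusted p 0.012), and so did Gm28294, opposite the secretory granule gene Ptprn, at 39.6, 407 and 316 against 20.7, 26.5 and 43.2 (-3.07, adjusted p 0.012). In Chn1os1, opposite the neuronal Rac regulator Chn1, con_sal_102 also lay above the AS libraries, at 29.7, 81.5 and 104.2 against 11.5, 11 and 16.1 (-2.47, adjusted p 0.012).

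The control libraries con_sal_104 and con_sal_114 were the 2 highest of all 16 libraries in each of the 10 genes. The DEX control con_dex_101 was the third in 8 of them and the fourth in the other 2. The same libraries stood apart over another class, which left out the called genes Gm14164, Gm26762, 1700040L08Rik, Gm28294 and Gm47512 for their smaller overlap. It held 115 genes (0.793% of 14499) with at least 50% of exon length overlapped by a partner at least 10 times as abundant. Their summed counts came to 1.23% and 1.19% of those of their partners in con_sal_104 and con_sal_114, 0.466% in con_sal_102, 0.540%, 0.620% and 0.502% in the AS libraries, and 0.404% to 0.770% over all 14 libraries but the first pair. Of the 115 genes, 86 were lower and 29 higher in AS, and 23 were lower at an unadjusted limma p under 0.05, as were 1.17% of all genes. Their median log2 difference was -0.54, which became 0.03 against con_sal_102 as the only control. Whether this signal was the source of the called differences was not tested.

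The calls moved with the libraries included. Without con_sal_102, limma called 20 genes, all 20 lower in AS and all 20 with opposite-strand overlap, of which 9 were among the 11 of DESeq2. DESeq2 without the same library called 72 genes, 25 higher and 47 lower, and 43 of the 47 had such overlap. Without dep2_sal_8 it called 12 genes, 7 of them with such overlap. Those without overlap included Fos (DESeq2 adjusted p 0.045), Mgp, Zfp85 and Gm13292. Without con_sal_114 it called 2 genes, Gm26762 and Isyna1 (DESeq2 adjusted p 0.049 for each). Without con_sal_104, DESeq2 called 0 genes. Without con_sal_104 and con_sal_114 together it also called 0, but then con_sal_102 is the only control, its spread is taken from the other groups, and every value given without that pair compares AS with a single animal. With all 16 libraries and only the genes with no such overlap, limma and DESeq2 each called 0. These genes hold 87 of the 169 lower genes at an unadjusted limma p under 0.05.

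**Figure D3:**
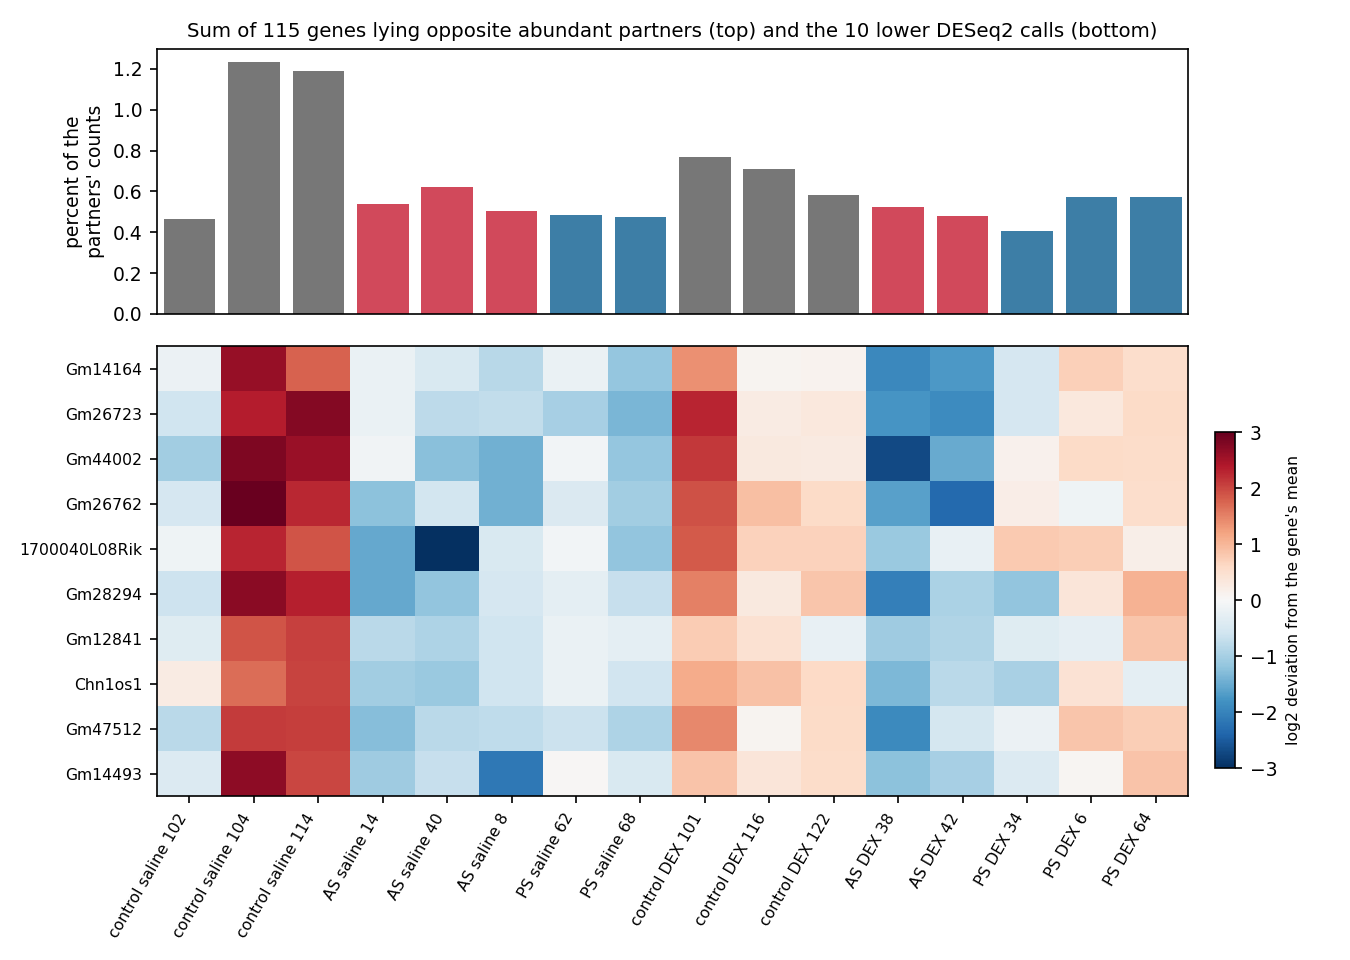
The upper panel gives, for each of the 16 libraries by group, the summed counts of the 115 opposite-strand genes as a percent of those of their partners, and the lower panel the 10 genes DESeq2 called lower, as log2 values centred on each gene's average. The libraries con_sal_104 and con_sal_114 stand at 1.23% and 1.19% with the other 14 libraries between 0.404% and 0.770%, and the same 2 libraries are the darkest red in each row of the lower panel.

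Isyna1 and Gm13292 were the lower genes outside these classes among the 10 with the smallest p and no overlap between groups. Isyna1, which makes inositol phosphate from glucose 6-phosphate, was at 2266, 2675 and 2142 in controls and at 1772, 1839 and 1903 in AS (log2 difference -0.36, SE 0.09, unadjusted limma p 0.0013). The PS saline libraries were at 1914 and 1904. Gm13292, a processed pseudogene whose reads may come from its parent gene, was at 300, 531 and 286 against 23, 49.4 and 176 (-2.58, SE 0.62), and PS saline was at 251 and 333. Gm11583, opposite the nuclear import gene Kpnb1, and Gm12999, opposite the ATP synthase inhibitor gene Atpif1, belonged to the class with opposite-strand overlap (-1.42 and -1.74).

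Genes of motile cilia were nearly all higher in AS, none of them past the test. Of 64 measured members, 61 were higher (95.3%, beside 53.9% of all genes), the median log2 difference was 0.66, 1 had an unadjusted limma p under 0.05, and in 5 the AS libraries all lay above the controls (7.81% beside 2.38%). In a bulk sample more ependymal cells in the punch and more RNA per cell cannot be told apart. By role, the dynein arms, which are the motors of the axoneme, had a median of 0.60 with 14 of 15 members higher, and the radial spokes and regulatory complex, which time the beat, had 0.54 with 12 of 14. The tubule proteins and the central pair had 0.83 with 24 of 24, and the regulators and assembly factors had 0.46 with 11 of 11.

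The members' values followed the library more than the group. The regulator Foxj1, the transcription factor that switches on the motile cilium program, was at 903, 2070 and 1072 in controls and at 3076, 2746 and 1053 in AS (log2 difference 0.72, SE 0.90), and the AS library dep2_sal_8 lay within the control range. Lrrc6, a factor that assembles dynein arms in the cytoplasm, was at 251, 246 and 313 against 433, 417 and 302 (0.50, SE 0.18, unadjusted limma p 0.014), again with dep2_sal_8 inside the controls. The motor Dnah9 was at 638, 601 and 460 against 1414, 717 and 699 (0.67, SE 0.59), and the spoke protein Rsph10b at 255, 211 and 259 against 576, 471 and 287 (0.83, SE 0.64). In these last 2 genes the groups did not overlap, yet the SE was close to the difference because libraries of the other groups were as far apart, for example 482 to 1527 for Dnah9 in the DEX controls. The same score over all 64 genes was -0.55, 0.11 and -0.40 in the controls and 0.86, 0.52 and -0.33 in AS, and it ran from -1.82 to 1.49 over the other 10 libraries. The median was 0.37 to 0.97 when each library was left out in turn. Under DEX, in other animals, 55 of 64 members were higher in AS, beside 7372 of all 14504 genes, with a median of 0.19. The score there was -1.19, 0.28 and 0.59 in the DEX controls and 0.84 and -0.66 in AS, so these groups overlapped.

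**Figure D4:**
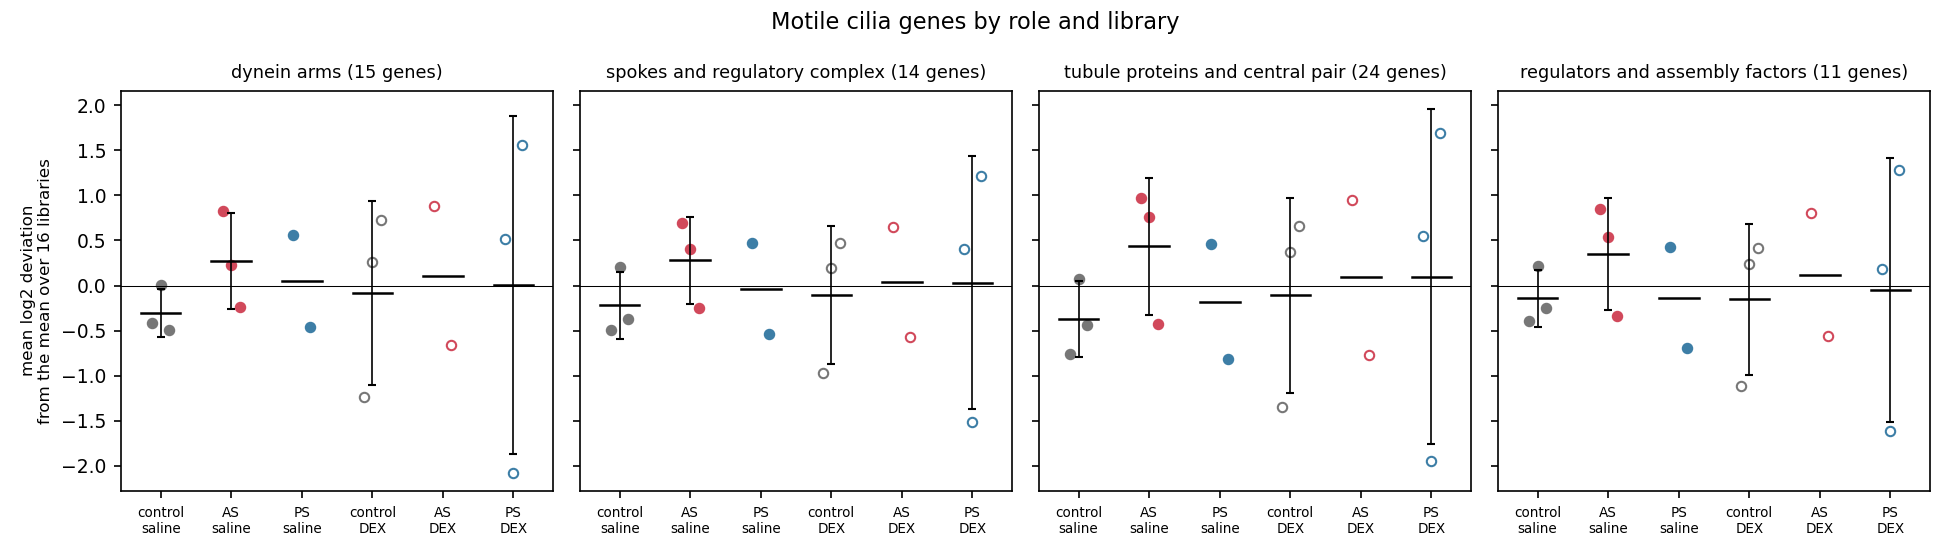
Mean log2 deviation of the motile cilia genes from their mean over the 16 libraries (y axis), in 4 panels by role, with 1 point per library (filled, saline, open, DEX), the group mean as a line and the SD as a bar in groups of 3. In each panel 2 AS saline libraries lie above the controls and the other lies among them, for the tubule proteins and central pair at 0.98, 0.76 and -0.43, and the DEX groups spread further.

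RFX and FOXJ1 factors act through known motifs at cilia genes, and promoters were therefore examined for the 4 members with the smallest limma p, whichever their direction, among those matched in RefSeq. Of these (Rfx3, Dnal1, Tekt4 and Rsph3a), only Tekt4 held a match to the pattern searched for the X-box of RFX factors. The search covered the 250 bases before the RefSeq start. None held the forkhead motif or the shorter X-box motif GTTGCC. Tekt4, a tubule protein, lies at chr17:25471340-25471589 on the plus strand of GRCm38.p6, and Rfx3, which codes for one of the RFX factors, at chr19:28011167-28011416 on the minus strand. Capitals mark the match to the X-box pattern (GTNNCC and GGNAAC, 2 bases apart), a match of letters and not a measured site. The pattern is loose and has a fixed spacing, so the capitals may not mark an X-box. Unmarked bases may hold an X-box of another spelling, which was not searched. The match starts 160 bases before the start of Tekt4, whose counted gene model begins further upstream. The sequence of Rfx3 is shown as one without a match.
Tekt4: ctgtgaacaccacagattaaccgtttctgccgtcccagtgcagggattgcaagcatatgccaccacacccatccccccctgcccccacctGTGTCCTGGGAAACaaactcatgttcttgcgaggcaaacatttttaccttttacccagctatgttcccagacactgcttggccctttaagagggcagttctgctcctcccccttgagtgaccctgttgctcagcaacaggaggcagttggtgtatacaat
Rfx3: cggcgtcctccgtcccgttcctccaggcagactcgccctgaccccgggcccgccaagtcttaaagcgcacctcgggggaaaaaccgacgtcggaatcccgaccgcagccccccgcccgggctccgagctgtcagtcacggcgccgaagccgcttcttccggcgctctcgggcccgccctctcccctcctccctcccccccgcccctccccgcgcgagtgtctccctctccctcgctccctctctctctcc
Counting either strand, the X-box pattern was in 4 of 52 cilia promoters (7.69%) and in 1.47% of the 10279 of all listed genes. The shorter GTTGCC was in 16 of 52 (30.8%) and in 11%, and the forkhead motif GTAAACA in 3 of 52 (5.77%) and in 2.03%. An X-box match can contain the shorter motif. Tekt4 was at 53.5, 153 and 118 in controls and at 225, 221 and 108 in AS (log2 difference 0.82, SE 0.45), and Rfx3 at 964, 730 and 1260 against 1411, 1165 and 1241 (0.40, SE 0.24). For both, the AS library dep2_sal_8 lay inside the control range.

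Vascular and glial markers were mostly higher in AS by small amounts. Of 15 endothelial markers 13 were higher (86.7% beside 53.9% of all genes, median log2 difference 0.28), 2 of them at an unadjusted limma p under 0.05 (1.23% of all genes). These were Slc2a1, the glucose transporter of the blood-brain barrier, at 5030, 4755 and 4308 against 6026, 5738 and 4820 (0.23, SE 0.09), and the efflux pump Abcb1a, at 1319, 715 and 905 against 1473, 1114 and 1290 (0.44, SE 0.20), whose difference was -0.04 against con_sal_102 alone. Both overlapped between groups. All 10 mural cell markers (0.30), 13 of 14 microglial markers (0.17) and 12 of 14 astrocyte markers (0.16) were higher, with 1 member of these 3 lists at an unadjusted p under 0.05. This was Aqp4, the water channel of astrocyte endfeet, at 6436, 5218 and 8083 against 8718, 9163 and 7499 (0.38, SE 0.16). Every member of the endothelial, mural, microglial and astrocyte lists overlapped between groups. Myelin genes (-0.01, 5 of 15 higher) and oligodendrocyte precursor genes (0.05, 5 of 9) were split. The precursor gene Pdgfra was higher (0.24, SE 0.10, unadjusted limma p 0.036), the 1 member of its list under 0.05. Against con_sal_102 alone the medians were -0.10 for endothelium, 0.02 for mural cells and -0.35 for myelin. The microglial median was 0.038 without dep2_sal_40.

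Markers of tissue at the edge of the punch were few. The matrix protein Mgp, one of 3 measured meningeal fibroblast markers of 12 listed, was at 163, 127 and 89.4 against 259, 421 and 132 (log2 difference 0.98, SE 0.36). All 4 measured blood cell markers were lower (median -0.20, but 0.14 without dep2_sal_8), and 4 of 7 choroid plexus markers were higher (0.05). Cholinergic genes differed most, with a median of 2.24 over 5 genes, and varied most within groups. The acetylcholine-synthesizing enzyme Chat was at 306, 113 and 20.3 against 964, 233 and 486, and 163 and 2150 in PS saline. The choline transporter Slc5a7 was at 869, 370 and 58.1 against 2351, 637 and 1884. In the AS library dep2_sal_40 both genes lay within the control range, and of the PS libraries one was low and one high. Cholinergic neurons are not part of the DRN but lie close to it. The part that these neighbouring cells take in other differences was not tested.

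Serotonin neuron genes lay on both sides of 0. Of 16 markers 6 were higher and 10 lower (median log2 difference -0.04), and 0 had an unadjusted limma p under 0.05 (0 called by limma, DESeq2 or edgeR). The interval for Tph2 was -0.42 to 0.52 around 0.05. Slc6a4 was at 89380, 129820 and 74627 in controls and at 92796, 102241 and 86495 in AS (-0.03, 95% interval -0.43 to 0.38), and a difference inside these intervals was not detectable with 3 animals a group. Among 12 genes of serotonin receptors and metabolism, 7 were higher, and the autoreceptor Htr1d, which inhibits serotonin release at terminals, was the 1 member at an unadjusted p under 0.05. Htr1d was at 812, 783 and 600 against 829, 972 and 875 (0.29, SE 0.12), just separated, with PS saline at 976 and 875 and DEX controls at 1461 to 1648.

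Most GABA and dopamine neuron genes and neuropeptides were lower in AS, and glutamate neuron genes were split. Of 10 GABA neuron genes 8 were lower (median log2 difference -0.28), of 8 dopamine neuron genes 6 (-0.42), of 14 neuropeptides 11 (-0.16) and of 4 glutamate neuron genes 2 (-0.11), with 0 of these at an unadjusted limma p under 0.05 or called by limma, DESeq2 or edgeR. The GABA median was -0.093 without con_sal_102, the dopamine median -0.14 and the glutamate median 0.25 without dep2_sal_40. Somatostatin (Sst), the peptide of a class of GABA neurons, was at 5408, 6806 and 7494 in controls and at 3440, 2226 and 6308 in AS (-0.84, SE 0.42), with the AS library dep2_sal_8 inside the control range. Under DEX it lay the other way, at 3620, 2717 and 3653 in controls and at 5804 and 9700 in AS (1.18), and the difference between both effects was 2.02 (unadjusted limma p 0.0064, not past the adjusted test). Tyrosine hydroxylase (Th), which makes the precursor of dopamine, was at 3194, 2903 and 4527 against 1875, 1878 and 3616 (-0.57, SE 0.44), and PS saline was at 3333 and 741.

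Large functional groups lay at or near the median of all genes. Cytosolic ribosomal proteins had a median of 0.05 (52 of 75 higher), nuclear genes of oxidative phosphorylation 0.02 (51 of 80) and the proteasome -0.03 (13 of 36). Heat shock proteins (0.01, 10 of 18), cholesterol synthesis (-0.02, 10 of 22), potassium channels (0.01, 35 of 67) and interferon, complement and antigen presentation genes (0.07, 13 of 23) were split. Glutamate receptors (0.09, 16 of 25) and GABA and glycine receptors (0.10, 17 of 20) were mostly higher by amounts under the SE of a typical gene, and the first median was -0.071 without con_sal_104. Without dep2_sal_40 the median was -0.25 for the cytosolic ribosome, -0.23 for oxidative phosphorylation and -0.20 for the proteasome, and without dep2_sal_8 it was 0.26, 0.17 and 0.075. In these 9 lists no gene was at an unadjusted limma p under 0.05 or called by limma, DESeq2 or edgeR. Transcripts of the mitochondrial genome had a median of 0.31 with 10 of 13 higher, among them mt-Nd3, a subunit of complex I, at 392, 316 and 250 against 719, 539 and 323 (0.67, SE 0.30). This median turned to -0.29 without con_sal_114 and was 0.62 without dep2_sal_40. The 7 nuclear noncoding RNAs were all higher (0.29), with a median that turned to -0.070 without con_sal_104 and was 0.72 without dep2_sal_40, and Malat1 in this list was lower by 0.49 against con_sal_102 alone. Among 33 collagens, laminins and integrins, split at 17 higher and 16 lower (0.01), the laminin-binding integrin subunit Itga6 (0.32, SE 0.12) and the TGF-beta-activating subunit Itgb8 (0.39, SE 0.16) had AS libraries above all controls (6.06% of the list beside 2.38% of all genes).

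**Figure D5:**
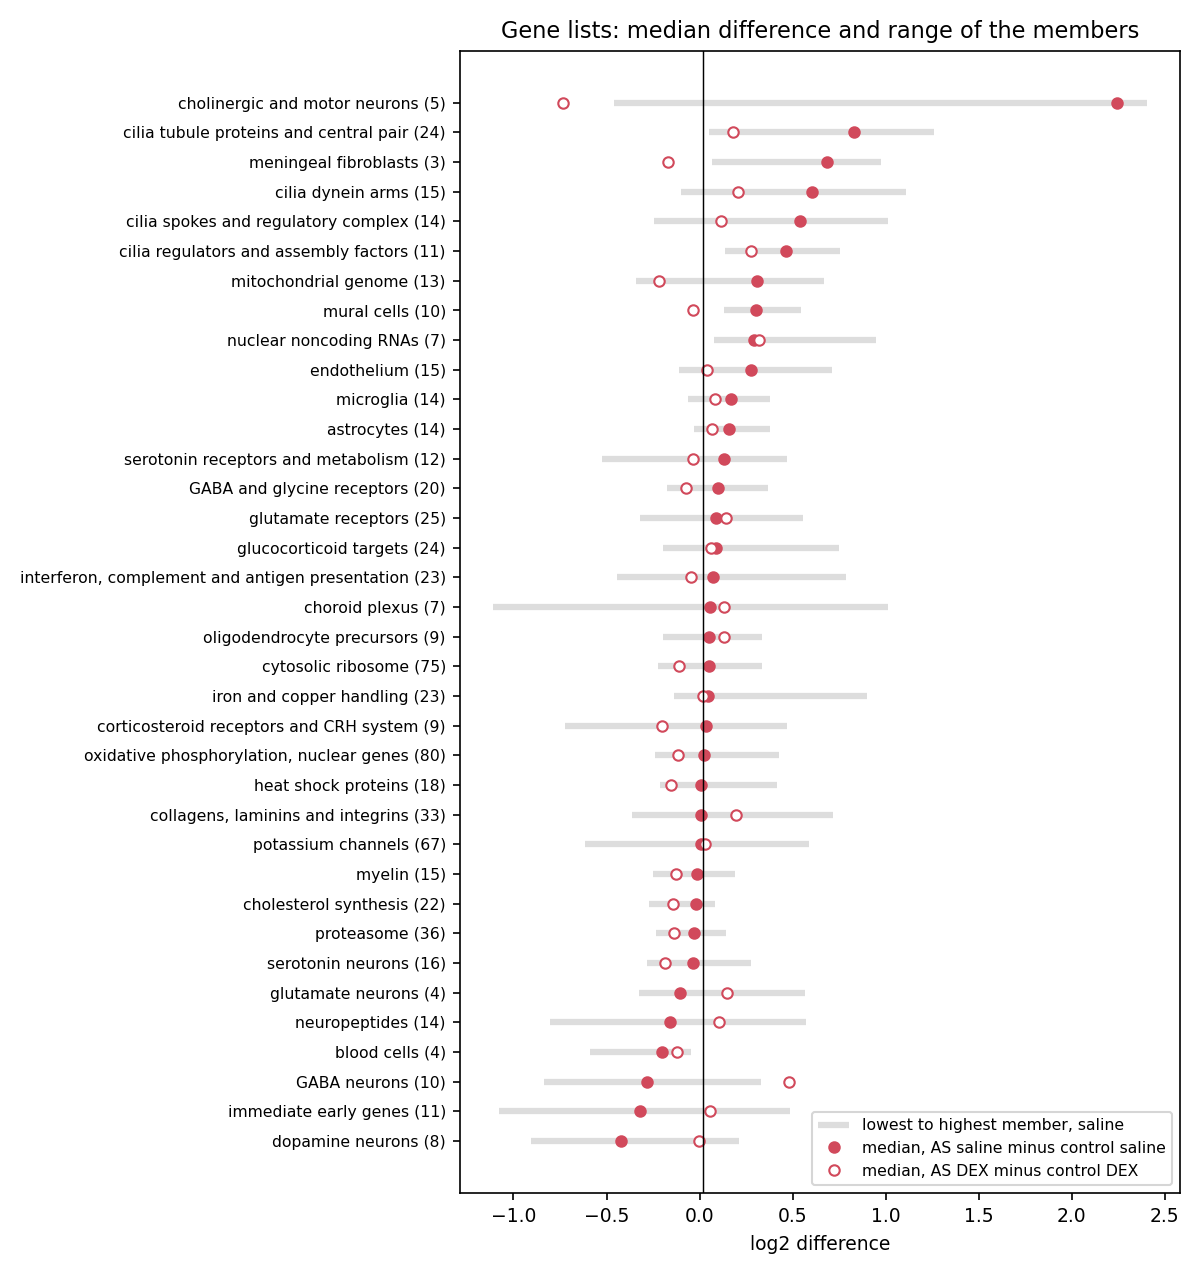
Log2 difference (x axis) of AS against control for each gene list (y axis, number of measured genes in brackets), with the saline median as a filled point, the DEX median as an open point, a grey bar from the lowest to the highest member under saline, and a vertical line at the median of all genes. Cholinergic genes (2.24) and the tubule proteins of cilia (0.83) have the highest saline medians, dopamine neuron genes (-0.42) and immediate early genes (-0.32) the lowest, and most other lists lie near the line.

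The PS saline libraries were compared with the same controls, so that both sets of values share the spread of those controls and are given side by side. Limma called 0 genes in PS against control, with 1112 (7.67%) at an unadjusted p under 0.05 and 4 called by DESeq2 (0.0276%), and 0 in AS against PS, with 494 (3.41%) and 1 called by DESeq2 (0.0069%). edgeR called 0 in either. The list medians against control in AS and PS were -0.32 and -0.20 for immediate early genes, 0.09 and 0.23 for glucocorticoid targets, 0.66 and 0.15 for motile cilia, 0.17 and -0.12 for microglia, and 0.05 and -0.39 for cytosolic ribosomal proteins. Without dep2_sal_40 the AS medians of the last 2 lists were 0.038 and -0.25. That AS and PS differ in any of these lists was not shown by a gene passing the test of AS against PS.

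AS and control animals given DEX served as a set of other animals for the direction of each difference. Of all genes, 6388 (44.0%) had the same direction in both, and of the 347 genes at an unadjusted p under 0.05 in saline 164 (47.3%) did. The share was 68 of 178 for higher genes, 39 of 87 for lower genes without opposite-strand overlap and 57 of 82 for lower genes with it. Of the 10 higher genes named first above 3 kept their direction, and of the 10 lower genes 7 did. Limma called 1 gene under DEX (0.00689%), with 508 (3.5%) at an unadjusted p under 0.05. It was the opposite-strand transcript Gm11583, at 54.6, 36.9 and 47.5 in controls and at 5.05 and 2.95 in AS (log2 difference -3.26, adjusted p 0.089). DESeq2 called 12 genes (0.0827%), of which 11 were lower and had opposite-strand overlap, and Gm26723 and Gm26762 were also among its saline calls. The AS effect did not differ between DEX and saline for any gene past the limma test (0 called, 583 or 4.02% at an unadjusted p under 0.05, and 0 called by DESeq2 or edgeR).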

How the data were processed

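The 16 DRN libraries analysed here were polyA-selected and strand-specific. The authors trimmed reads with fastp 0.20.1, mapped them with HISAT2 2.2.1 to GRCm38, counted them per gene with featureCounts (annotation vM22) and deposited a signal table of normalized counts, that is counts divided by DESeq2 size factors. The study kept genes with at least 10 reads in every sample, yet 56 to 248 of the 14504 listed genes were at 0 in each library. Dividing by the smallest step of each library gave whole reads for 100% of values (tolerance 0.001 reads). The closest pair of a group differed by a chi-square of 28.8 per degree of freedom, so no library was a copy.

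Log2(normalized count + 1) was fitted in limma 3.58.1 (R 4.3.3) with a mean for each of 6 groups over 16 libraries (10 residual and 3.88 prior degrees of freedom, mean-variance trend), with Benjamini-Hochberg adjustment over all genes and calls at an adjusted p under 0.1. A log2 difference on this scale understates that of low genes. DESeq2 1.42.0 and edgeR 4.0.16 ran on the recovered reads as alternatives. Only the limma, DESeq2 and edgeR fits were tested on simulated data, with differences larger than most of those described here. P-values measure the spread between animals of a group. Named genes were those called by DESeq2, the 10 higher and 10 lower genes with the smallest limma p among those with no overlap between groups and a mean of at least 50, up to 4 members with the smallest p of each of 37 lists, and a few fixed genes. Other members were not named. The comparison, lists and members were chosen with earlier results of these data known, and 3 lists were trimmed of pseudogenes or antisense entries after the files were read. Promoter sequences came from RefSeq (GRCm38.p6), gene positions from the annotation of the same build. The authors' own comparison columns were not used. The partner of 1 opposite-strand gene is not reported here.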

Additional observations from a re-analysis of the deposited data

Results flagged for a closer look

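In 5 named genes the AS and control libraries were separated one way under saline and the other way under DEX. They were picked for this opposite separation, after being named for their saline values. The unadjusted p-values below therefore follow in part from the selection and are no independent evidence. The difference of the AS effect, DEX minus saline on the log2 scale, was -1.23 for Cp (unadjusted limma p 0.0016), -1.25 for Ccn1 (0.0028), -0.66 for Fpgt (0.0016), -1.34 for the noncoding RNA 5330439K02Rik (0.00076) and 0.48 for Isyna1 (0.0026). In the first 4 genes AS was higher under saline and lower under DEX, and in Isyna1 the reverse. None passed the limma test over all genes (adjusted p 0.94 for each). The AS effects compared come from 3 and 3 libraries under saline and from 2 and 3 under DEX.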

How the results depend on the processing

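No paired analysis was possible because the animal numbers in the labels are not shared between groups. Scaling, pseudocount, filter, robust spread and the choice of libraries in the fit left 0 genes called in AS against control saline. Left out in turn, the libraries gave 0 to 20 calls (0 to 20 lower) with limma and 0 to 72 (0 to 25 higher, 0 to 47 lower) with DESeq2 (12 without dep2_sal_8, of which 3 were higher and 9 lower), which called 11 (1 higher, 10 lower) with all. With the unadjusted threshold there were 347 (178 and 169). AS against PS gave 1 call by DESeq2, 2 with library weights and 0 to 1 without single libraries, and PS against control 4 by DESeq2 and 0 to 15. AS against control under DEX gave 2 with a pseudocount of 0.1, 14 with library weights, 12 by DESeq2, 0 to 1 without single libraries, and 0 by edgeR, with a pseudocount of 10, with a minimum mean of 10 or 100 or after quantile normalization. The cause was not tested.

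List medians moved beyond the spread of their library scores in these cases. With library weights they were 1.25 for dynein arms, 1.01 for spokes, 0.96 for cilia regulators, -0.25 for myelin, 0.23 for glutamate neurons, 0.19 for glucocorticoid targets and -0.13 for the corticosteroid and CRH genes. For glucocorticoid targets the median was 0.042 after quantile normalization and 0.050 with the transcript length trend removed. Without con_sal_104 and con_sal_114, an alternative chosen after seeing the data that leaves 1 control library, assumed to vary like the other groups, the medians were -0.35 for myelin, -0.17 for oligodendrocyte precursors, -0.098 for endothelium, 0.024 for mural cells, 0.64 for cholinergic genes, -0.040 for serotonin receptors, 0.14 for glucocorticoid targets, 0.14 for cholesterol synthesis and 0.028 for opposite-strand genes. Without single libraries the ranges were -0.30 to 0.25 for glutamate neurons, 1.10 to 3.26 for cholinergic genes, 0.014 to 0.15 for serotonin receptors, 0.088 to 0.13 for glucocorticoid targets and -0.030 to 0.095 for the corticosteroid and CRH genes.

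Single genes changed sign only where the difference was near 0 or rested on con_sal_104 and con_sal_114. With library weights Fkbp5 was at -0.035, Tph2 at -0.062 and Slc6a4 at 0.0033, and after quantile normalization Tph2 was at -0.00851 and Slc6a4 at 0.078. Without con_sal_104 and con_sal_114, by limma and DESeq2, Gm26723 was at 0.028 and 0.051, Gm44002 at 0.098 and 0.22, Abcb1a at -0.038 and -0.030, Slc6a4 at 0.067 and 0.070 and Malat1 at -0.49 and -0.49. Without single libraries limma gave -0.20 to 0.21 for Tph2, -0.20 to 0.20 for Slc6a4, -0.0017 to 0.077 for Fkbp5 and -0.0024 to 0.16 for Nr3c1, and DESeq2 gave -0.21 to 0.23 for Tph2 (-0.022 without con_sal_102), -0.22 to 0.19 for Slc6a4 and -0.0019 to 0.17 for Nr3c1. With 3 animals a group, the 95% interval of the median gene reached 0.36 to either side on the log2 scale.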
